A study of Mus musculus with 27 samples.

Results

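The genes described here are 34 components of the unfolded protein response of the endoplasmic reticulum and of the integrated stress response, taken by name from a list. This list and the roles were chosen with earlier results of these data known. All 34 were found among the 24062 gene symbols of the count table, and all 34 passed the filter on low counts in every fit. By their textbook roles they are 3 stress sensors, 5 transcription factors, 11 chaperones or cofactors, 3 protein disulfide isomerases, 4 genes of endoplasmic reticulum degradation, and 8 enzymes, transporters or regulators of the ATF4 pathway. RNA was sequenced from mouse embryonic fibroblasts, primary cells grown out of embryos, and from whole lungs of animals aged 10 days, in a study of the transcription factor Foxm1. All animals and cells were of the strain C57BL/6, and each of the 9 groups held 3 libraries. Experiment 1 compared fibroblasts with the genotype labels KO-NTD, KO and WT, and experiment 2 compared fibroblasts labelled Het-NTD, Het, WT-NTD and WT. The lungs were labelled Het or WT. The labels explain neither NTD nor which part of Foxm1 was altered, nor do they say whether the libraries of a group came from separate embryos, cultures or animals, so the p-values speak of the spread among the libraries alone.

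The lumen of the endoplasmic reticulum is where secreted and membrane proteins fold. When unfolded protein accumulates there, 3 membrane sensors respond: IRE1 (encoded by Ern1) splices the mRNA of Xbp1, ATF6 is cut into a transcription factor, and PERK (encoded by Eif2ak3) phosphorylates the translation factor eIF2. XBP1 and ATF6 raise chaperones and degradation factors, while phosphorylated eIF2 favours translation of ATF4, which raises amino acid synthesis and transport, and PERK shares this arm with kinases that sense amino acid shortage, viral RNA or haem. Read counts per gene show neither the splicing of Xbp1 nor any protein cut or phosphorylated, so the sensors' activity was not measured.

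The promoter letters of the members show which arm has a known docking sequence near the start site, and the windows of 4 members that recur in the results are printed for that reason. Each window is RefSeq sequence on GRCm38.p6, runs from 250 bases before to 50 bases after the start site on the gene's own strand, and has the motif matches in capitals. The endoplasmic reticulum stress element (ERSE) was searched as CCAAT followed after 9 bases by CCACG, ERSE-II as ATTGG followed after 1 base by CCACG, the core of the unfolded protein response element (UPRE) as TGACGTGG, and the C/EBP-ATF element as TGATG followed after 1 base by AA, each on both strands. In Herpud1 and Slc7a11, matches on the opposite strand read as TTGCATCA.
Hspa5, chr2:34771840-34772139, plus strand: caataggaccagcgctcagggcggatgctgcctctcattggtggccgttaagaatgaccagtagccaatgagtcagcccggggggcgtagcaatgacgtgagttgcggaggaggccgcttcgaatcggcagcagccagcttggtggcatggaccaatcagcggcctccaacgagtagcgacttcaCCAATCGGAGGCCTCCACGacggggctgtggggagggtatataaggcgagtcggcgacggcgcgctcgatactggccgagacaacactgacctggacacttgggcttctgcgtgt
Pdia6, chr12:17266339-17266638, plus strand: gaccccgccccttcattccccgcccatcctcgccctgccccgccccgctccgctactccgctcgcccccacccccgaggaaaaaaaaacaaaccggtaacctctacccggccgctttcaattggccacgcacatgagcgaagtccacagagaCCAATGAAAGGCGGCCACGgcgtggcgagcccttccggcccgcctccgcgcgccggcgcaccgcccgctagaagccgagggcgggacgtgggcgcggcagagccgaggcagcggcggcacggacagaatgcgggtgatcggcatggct
Herpud1, chr8:94386179-94386478, plus strand: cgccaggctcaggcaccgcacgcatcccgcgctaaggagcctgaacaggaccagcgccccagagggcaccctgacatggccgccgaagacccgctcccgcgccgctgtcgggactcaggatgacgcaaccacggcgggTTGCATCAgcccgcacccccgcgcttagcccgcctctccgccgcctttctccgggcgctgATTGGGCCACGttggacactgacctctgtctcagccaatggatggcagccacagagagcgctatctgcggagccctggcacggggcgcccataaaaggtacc
Slc7a11, chr3:50443564-50443863, minus strand: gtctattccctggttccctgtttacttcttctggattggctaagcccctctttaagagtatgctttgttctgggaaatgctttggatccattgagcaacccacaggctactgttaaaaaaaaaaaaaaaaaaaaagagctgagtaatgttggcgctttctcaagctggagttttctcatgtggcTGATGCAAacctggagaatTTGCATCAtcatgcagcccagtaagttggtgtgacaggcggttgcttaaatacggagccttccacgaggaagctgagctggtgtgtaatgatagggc

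A RefSeq promoter was matched for 30 of the 34 members. ERSE lay in 8 of the 30 (Hspa5, Hsp90b1, Calr, Canx, Dnajc3, Creld2, Pdia6 and Syvn1), against 0.137% of all 27025 genes with a promoter window. ERSE-II lay in 2 (Herpud1 and Dnajb11), against 0.0444% of all genes. The C/EBP-ATF element lay in 6 (Asns, Atf3, Chac1, Herpud1, Slc7a11 and Trib3), against 4.51% of all genes, and Slc7a11 held it at 2 places. The UPRE core lay in 0 of the 30 windows, against 0.714% of all genes. ERSE fell only on chaperones, a disulfide isomerase and a degradation gene, and the C/EBP-ATF element on ATF4 pathway genes, Atf3 and Herpud1. Herpud1, which recruits substrates to the degradation complex, was the only member with matches of both kinds. A match describes letters in a window and shows no binding. Members and motifs were both chosen from what is known of these pathways, so the shares beside those of all genes are no test. The ERSE matches, read on the motif's strand with the fixed letters in capitals, differed in the 9 bases between those letters.
Hspa5, positions -65 to -47: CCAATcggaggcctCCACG
Hsp90b1, positions -212 to -194: CCAATcgcaaggagCCACG
Hsp90b1, positions -107 to -89: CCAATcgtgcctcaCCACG
Calr, positions -162 to -144: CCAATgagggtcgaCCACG
Canx, positions -145 to -127: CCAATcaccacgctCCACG
Pdia6, positions -98 to -80: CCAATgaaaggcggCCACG
Dnajc3, positions -105 to -87: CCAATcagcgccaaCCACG
Creld2, positions -126 to -108: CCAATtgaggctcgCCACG
Syvn1, positions -44 to -26: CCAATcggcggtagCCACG

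**Figure D1:**
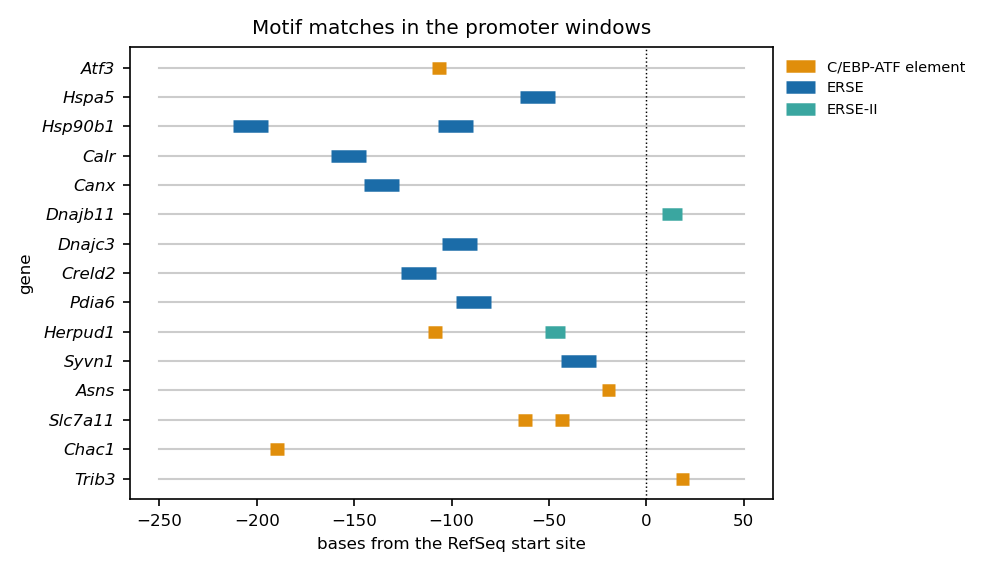
Positions of the motif matches in the promoter windows of the 15 members that held any. The x axis is bases from the RefSeq start site, each row is a gene, and bars mark ERSE, ERSE-II or C/EBP-ATF element matches. All ERSE matches lay upstream of the start site.

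Libraries held 29730693 to 69517834 counts with a median of 42708114, and the 34 members took 1.16 to 1.37% of the counts in fibroblast libraries and 0.530 to 0.604% in lung libraries. Foxm1, the gene named by the genotype labels, did not follow the label KO. It was measured at 139, 149 and 152 CPM, which are read counts scaled to a common library size, in libraries labelled KO, against 134, 140 and 136 CPM in WT libraries of experiment 1 (log2 difference 0.10, edgeR adjusted p 0.565). Foxm1 stood at 364, 390 and 333 CPM in KO-NTD libraries and was higher there than in KO libraries (log2 difference 1.31, edgeR adjusted p 1.8e-04). In experiment 2 it stood at 126, 131 and 130 CPM in Het libraries, against 145, 147 and 149 CPM in WT libraries (log2 difference -0.18, edgeR adjusted p 0.249). Foxm1 had 351, 310 and 379 CPM in Het-NTD libraries and 406, 293 and 339 CPM in WT-NTD libraries. In both experiments, every library labelled NTD thus lay above every library without that label. The counts are per gene and cannot show a deletion outside the counted exons, so the groups are called by their labels. Fibroblast markers summed to 32984 to 51243 CPM in fibroblast libraries, against 8469 to 10670 CPM in lung libraries. The 6 alveolar type 2 cell markers summed to 10.9 to 19.9 CPM in fibroblasts with up to 5 of the 6 at 0 in a library, and reached 22556 CPM in lung.

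Among the members, folding machinery was the most abundant and the sensor Ern1 among the least. Compared per kilobase of exon, Calr, the calcium-binding lectin chaperone calreticulin, ranked 1 of 34 in every fibroblast group, followed by Hsp90b1, the lumenal HSP90 known as GRP94, and Pdia3, a disulfide isomerase that works with calreticulin. In Het fibroblasts of experiment 2 these levels were 549 ± 18.0 CPM per kb for Calr, 421 ± 11.5 for Hsp90b1 and 418 ± 14.3 for Pdia3, and in WT fibroblasts 623 ± 31.2, 484 ± 24.1 and 428 ± 24.1 (SD, n = 3 each). In lung the order was Pdia3, Hsp90b1, Calr, with 208 ± 42.1, 181 ± 22.4 and 160 ± 22.6 CPM per kb in Het lungs and 206 ± 18.9, 182 ± 10.5 and 159 ± 7.93 in WT lungs (SD, n = 3 each). Ern1 stood at 2.75 ± 0.238 CPM per kb in Het fibroblasts and 2.01 ± 0.143 in WT fibroblasts of experiment 2 (SD, n = 3 each).

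**Figure D2:**
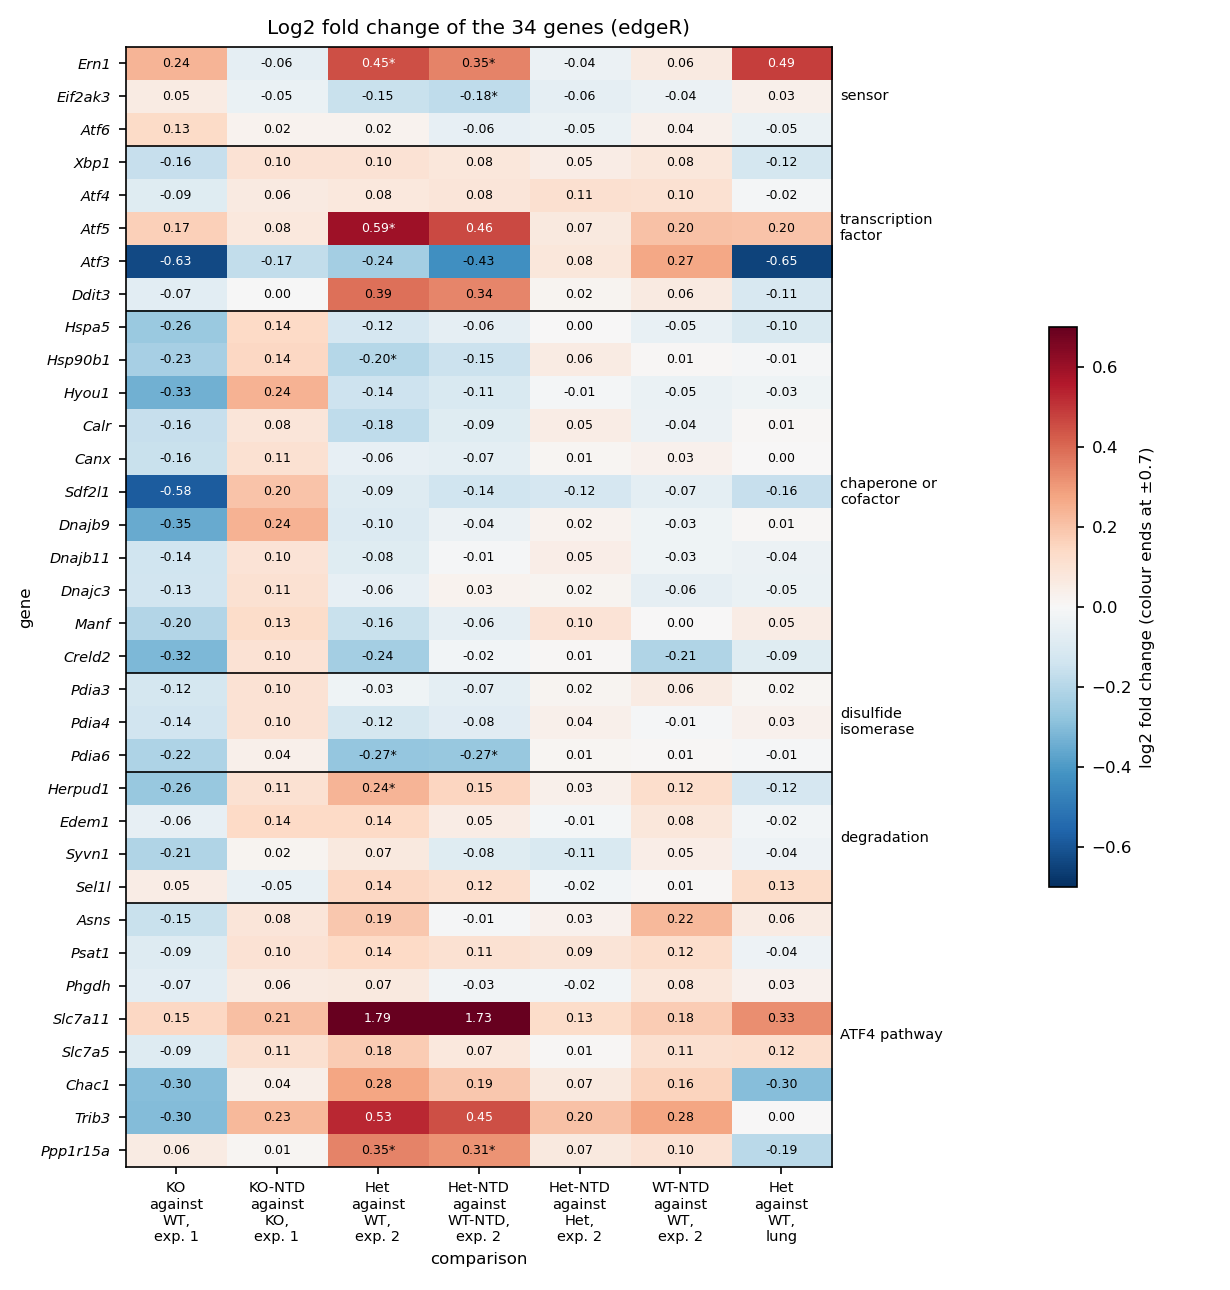
Log2 fold changes of the 34 genes in 7 comparisons, the first-named group over the second. Rows are genes grouped by role, columns are comparisons, colour and number give the edgeR log2 fold change (colour ends at ±0.7), and an asterisk marks an adjusted p under 0.05. Asterisks stand only in Het against WT and Het-NTD against WT-NTD of experiment 2, on 6 and 4 genes.

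Among the genotype contrasts, most members were called in Het fibroblasts of experiment 2, where 4 members were higher and 2 lower than in WT by edgeR. The sensor Ern1, the transcription factor Atf5, the degradation factor Herpud1 and the phosphatase regulator Ppp1r15a rose, and the chaperone Hsp90b1 and the disulfide isomerase Pdia6 fell. The background was high: 16.5% of the 14314 genes tested were called, 7.89% higher and 8.61% lower, so 6 of 34 is a share near the background and no result about the members as a list. Their median log2 difference was 0.05, against 0.01 over all genes tested. By role, all 11 chaperones lay below 0 (median -0.12) and all 3 disulfide isomerases (-0.12), while all 4 degradation genes (0.14) and all 8 ATF4 pathway genes (0.23) lay above 0. Genes of a role can move together in a library, so these signs are not separate observations. WT library 3 had the highest mean log2 CPM of the WT libraries for chaperones (8.06) and the lowest for ATF4 pathway genes (6.71). The RNA is of bulk cultures, in which fewer cells of a type and less RNA per cell cannot be told apart. In Het against WT, the share of all genes whose groups did not overlap was not counted. A lack of overlap reported for a member below therefore has no background.

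Of the sensors, Ern1 (chromosome 11, 106394650 to 106487852, minus strand, GRCm38) encodes IRE1, the kinase and nuclease that splices Xbp1. It was measured at 21.3, 20.01 and 23.6 CPM in Het libraries, against 17.0, 15.1 and 15.2 CPM in WT libraries. Every Het library lay above every WT library, with a log2 difference of 0.45 ± 0.08 (SE, edgeR adjusted p 0.00378), and the call held in all 6 fits that left out 1 library. Xbp1, the transcript that IRE1 splices, stood at 151, 141 and 147 CPM in Het libraries, against 140, 130 and 140 CPM in WT libraries. Its log2 difference of 0.10 did not pass (edgeR adjusted p 0.103). The other sensors did not pass either, with log2 differences of -0.15 for Eif2ak3 and 0.02 for Atf6.

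Among the transcription factors, Atf5 (chromosome 7, 44812256 to 44816658, minus strand) is made from an mRNA that, like that of Atf4, is favoured when eIF2 is phosphorylated. It stood at 306, 309 and 351 CPM in Het libraries, against 263, 217 and 159 CPM in WT libraries. The groups did not overlap, and the log2 difference was 0.59 ± 0.14 (SE, edgeR adjusted p 0.0197). Atf5 shares exon positions with Il4i1 and Nup62 on the other strand in GENCODE M21, and the kit did not mark strand, so reads of the overlap cannot be assigned. Atf4 itself was close in both groups, at 399, 408 and 419 CPM in Het libraries, against 408, 402 and 354 CPM in WT libraries (log2 difference 0.08, edgeR adjusted p 0.348). Ddit3, which encodes the pro-apoptotic factor CHOP, stood at 41.3, 42.5 and 43.5 CPM in Het libraries, against 39.4, 34.7 and 23.1 CPM in WT libraries. WT library 3 was the lowest of the 6, and the log2 difference of 0.39 did not pass (edgeR adjusted p 0.106). Ddit3 shares exon positions with Mars, itself a synthetase gene, on the other strand, so reads of that overlap cannot be assigned either.

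The folding genes called lower, Pdia6 and Hsp90b1, carry ERSE matches printed above. Hspa5, Calr, Canx, Dnajc3, Creld2 and Syvn1 carry them too and were not called. A link between the match and the difference was not tested. Pdia6 (chromosome 12, 17266545 to 17284770, plus strand), a disulfide isomerase, was measured at 712, 628 and 609 CPM in Het libraries, against 736, 784 and 831 CPM in WT libraries, a log2 difference of -0.27 ± 0.06 (SE, edgeR adjusted p 0.0136). Hsp90b1 (chromosome 10, 86690209 to 86705509, minus strand) was measured at 1684, 1624 and 1597 CPM in Het libraries, against 1813, 1832 and 1986 CPM in WT libraries, a log2 difference of -0.20 ± 0.05 (SE, edgeR adjusted p 0.0133). Neither gene overlapped between the groups, and each shares exon positions with a gene on the other strand (Atp6v1c2 for Pdia6, 1810014B01Rik for Hsp90b1). Hspa5, the lumenal HSP70 known as BiP and a standard readout of the unfolded protein response, stood at 1509, 1451 and 1426 CPM in Het libraries, against 1483, 1582 and 1692 CPM in WT libraries. It overlapped between the groups (log2 difference -0.12, edgeR adjusted p 0.150). Calr, below all WT libraries in all Het libraries, missed the threshold at a log2 difference of -0.18 (edgeR adjusted p 0.0520).

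Herpud1 (chromosome 8, 94386438 to 94395377, plus strand) had 99.1, 102 and 104 CPM in Het libraries, against 89.9, 93.1 and 75.6 CPM in WT libraries, a log2 difference of 0.24 ± 0.07 (SE, edgeR adjusted p 0.0373). Ppp1r15a (chromosome 7, 45522916 to 45526268, minus strand), which encodes GADD34, the regulatory subunit that brings a phosphatase to eIF2, had 64.0, 71.2 and 74.9 CPM in Het libraries, against 60.8, 52.9 and 51.5 CPM in WT libraries, a log2 difference of 0.35 ± 0.09 (SE, edgeR adjusted p 0.0205). Both genes lay higher in every Het library than in any WT library, and each kept its call in 2 of the 6 fits that left out 1 library. Ppp1r15a shares exon positions with Tulp2 on the other strand.

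The widest difference of any member in this comparison was in Slc7a11 (chromosome 3, 49892526 to 50443614, minus strand), the cystine importer that feeds glutathione synthesis, but its libraries were also the most uneven. It was measured at 61.3, 93.9 and 24.9 CPM in Het libraries, against 20.2, 18.6 and 13.4 CPM in WT libraries. All Het libraries lay above all WT libraries, with Het library 3 close to the WT values, and the log2 difference of 1.79 ± 0.54 did not pass (SE, edgeR adjusted p 0.0572). Without Het library 3 it was called. Trib3, a pseudokinase induced by ATF4 and CHOP, stood at 92.3, 108 and 116 CPM in Het libraries, against 95.9, 74.8 and 48.5 CPM in WT libraries (log2 difference 0.53, edgeR adjusted p 0.102). WT library 3 was again the lowest, as it was for Chac1 and Asns, and it was the highest WT library for the chaperones Hspa5 and Hsp90b1. Without WT library 3, 4 members were called, all of them among the 6, and Herpud1 and Ppp1r15a were lost. Atf5 and Ppp1r15a were lost without WT library 2, Herpud1 without Het library 1, and Pdia6, Herpud1 and Ppp1r15a without Het library 2. Without Het library 3, Ern1 was the only one of the 6 still called, and without WT library 1 all 6 were called with 6 more.

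DESeq2 called 11 members in this comparison, among 18.5% of its 15544 genes with an adjusted p: the same 6 with Ddit3, Calr, Creld2, Slc7a11 and Trib3. The summed CPM of 11 macrophage markers moved with the same groups, at 67.6, 11.6 and 26.9 CPM in Het libraries, against 181, 164 and 200.02 CPM in WT libraries, and edgeR called 9 of the 11 lower. Its part in the members' differences was not tested.

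**Figure D3:**
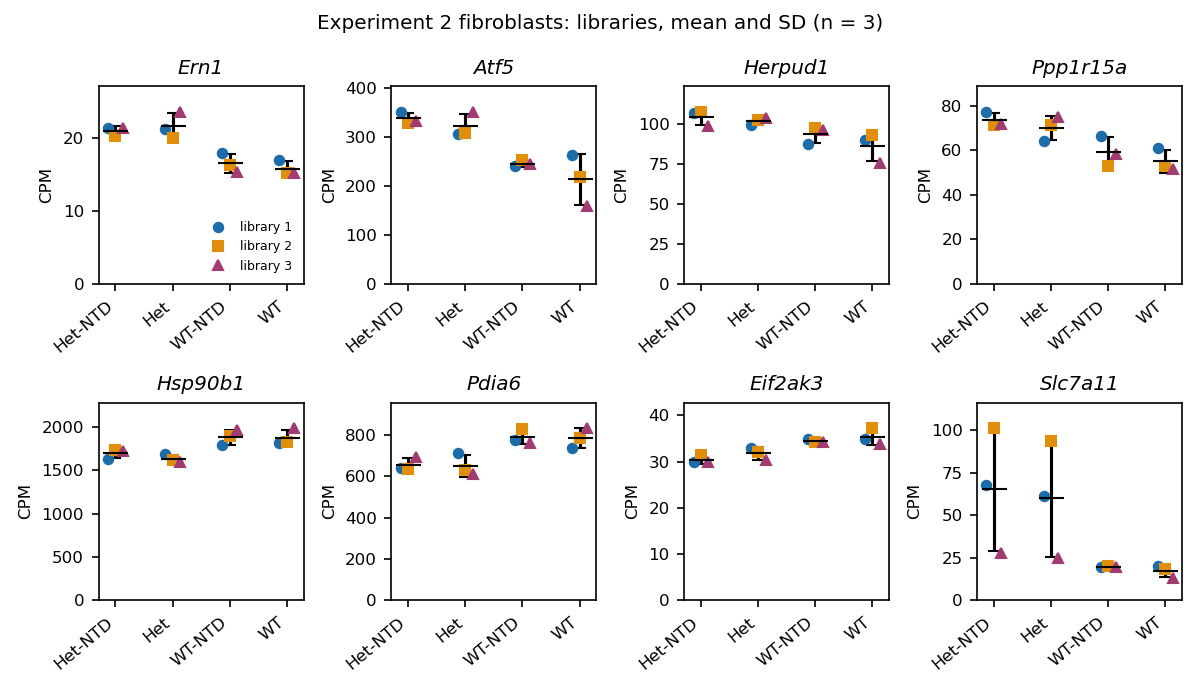
CPM of 8 members in the 12 fibroblast libraries of experiment 2, with groups Het-NTD, Het, WT-NTD and WT on the x axis. Points are libraries, bars are the mean and SD of 3 libraries, and the y axis starts at 0. Ern1, Atf5, Herpud1 and Ppp1r15a lay higher, and Hsp90b1 and Pdia6 lower, in every Het library than in any WT library, and Slc7a11 reached 101 CPM in a Het-NTD library.

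The same genotype contrast was measured a second time in libraries that carry the label NTD. Among Het-NTD libraries, Ern1 and Ppp1r15a were higher and Pdia6 and Eif2ak3 lower than in WT-NTD libraries by edgeR. These 4 of 34 stand beside 11.5% of 14314 genes called, 5.24% higher and 6.24% lower, again a share near the background. The contrasts share no library, but they were tested in the same fit. The labels do not say whether libraries with and without NTD came from the same embryos or cultures. The agreement of the contrasts may therefore not be independent. In both, 3 members (Ern1, Ppp1r15a and Pdia6) were called in the same direction, which is 3 of the 6 and 3 of the 4. Over all genes, 1110 were called in both in the same direction, 7.75% of the 14314 tested, which is 47% of the calls in Het against WT and 67.6% of those in Het-NTD against WT-NTD. The members' overlap is thus read as no result about the list. The median log2 difference of the members was -0.01, against 0.00 over all genes tested, and 10 of 11 chaperones lay below 0. The signs of the chaperones are again not separate observations.

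Ern1 stood at 21.3, 20.3 and 21.4 CPM in Het-NTD libraries, against 18.0, 16.3 and 15.3 CPM in WT-NTD libraries (log2 difference 0.35 ± 0.08 SE, edgeR adjusted p 0.0183). Pdia6 stood at 639, 635 and 691 CPM in Het-NTD libraries, against 775, 826 and 762 CPM in WT-NTD libraries (log2 difference -0.27 ± 0.06 SE, edgeR adjusted p 0.0185). Ppp1r15a stood at 77.3, 71.4 and 71.9 CPM in Het-NTD libraries, against 66.3, 52.9 and 58.4 CPM in WT-NTD libraries (log2 difference 0.31 ± 0.09 SE, edgeR adjusted p 0.0398). For each of the 3 genes the groups did not overlap. Here too the share of all genes that separated was not counted, so a lack of overlap has no background. Eif2ak3 (chromosome 6, 70844515 to 70905245, plus strand), which encodes PERK, was lower in every Het-NTD library, at 29.8, 31.4 and 29.9 CPM, against 34.8, 34.2 and 34.2 CPM in WT-NTD libraries (log2 difference -0.18 ± 0.05 SE, edgeR adjusted p 0.0452). Of the 6 fits that left out 1 library, Eif2ak3 was called in 0, Ppp1r15a in 1, Ern1 in 2 and Pdia6 in 3, and the call of Eif2ak3 was also lost with no filter on low counts and with the 2 groups alone in the fit. No member was called after leaving out Het-NTD library 1 or WT-NTD library 2. The call was Ern1 alone without Het-NTD library 2, Pdia6 alone without WT-NTD library 3, and Pdia6 with Slc7a11 without Het-NTD library 3. Without WT-NTD library 1 it was Ern1, Pdia6 and Ppp1r15a with Hsp90b1, Calr and Pdia4.

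Atf5 had 351, 329 and 333 CPM in Het-NTD libraries, against 240, 252 and 244 CPM in WT-NTD libraries, and Hsp90b1 had 1637, 1738 and 1728 CPM, against 1791.5, 1902 and 1961 CPM in WT-NTD libraries. Both were without overlap and missed the threshold, with log2 differences of 0.46 and -0.15 (edgeR adjusted p 0.0682 and 0.0613). Slc7a11 stood at 67.6, 101 and 28.0 CPM in Het-NTD libraries, against 19.6, 20.1 and 19.5 CPM in WT-NTD libraries (log2 difference 1.73, edgeR adjusted p 0.0793). As in the Het group, library 2 was the highest and library 3 the lowest. DESeq2 called 7 members, among 13.1% of the 15909 genes with an adjusted p, adding Atf5, Hsp90b1 and Slc7a11 to the 4. The remaining standard readouts did not pass: the log2 difference was -0.06 for Hspa5, 0.08 for Xbp1, 0.08 for Atf4 and 0.34 for Ddit3 (edgeR adjusted p 0.501, 0.248, 0.336 and 0.184). Macrophage markers summed to 16.9, 12.03 and 17.2 CPM in Het-NTD libraries, against 162, 68.9 and 88.3 CPM in WT-NTD libraries, and 10 of 11 were called lower. Their part in the members' differences was not tested.

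Beyond the 34 members, calls in the ATF4 target and synthetase lists were all higher in Het fibroblasts, while the lists of further regulators, folding genes and degradation genes held calls in both directions. These lists too were chosen with earlier results of these data known, so their counts are not those of unselected genes. Of 36 further ATF4 targets tested, 17 were higher and 0 lower in Het than in WT by edgeR, beside 7.89% of all genes higher, with a median log2 difference of 0.27, against 0.01 over all genes. Leaving out 1 library gave 11 (without Het library 3) to 22 (without WT library 1). Stc2, which encodes the secreted glycoprotein stanniocalcin 2, averaged 26.5 ± 1.37 CPM in Het libraries and 15.6 ± 0.640 CPM in WT libraries (SD, n = 3 each; log2 difference 0.76, edgeR adjusted p 6.6e-04). Vegfa, the angiogenic growth factor, averaged 190 ± 16.5 CPM in Het libraries and 115 ± 16.9 CPM in WT libraries (log2 difference 0.72, edgeR adjusted p 0.00107). Cth, the transsulfuration enzyme that makes cysteine, averaged 41.5 ± 10.1 CPM in Het libraries and 16.2 ± 4.02 CPM in WT libraries (log2 difference 1.35, edgeR adjusted p 0.00175). The 20 cytosolic aminoacyl-tRNA synthetases charge tRNAs with amino acids, and some of them are known ATF4 targets. Among the 20, 9 were higher and 0 lower (median 0.16). Tars at 0.26, Wars at 0.25 and Sars at 0.34 on the log2 scale led them (edgeR adjusted p 0.00594, 0.00620 and 0.00741). The count of synthetases depended on single libraries: 5 were called without WT library 2, 4 without WT library 3, 3 without Het library 3 and 11 without WT library 1, and 2 with the 2 groups alone in the fit.

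In the NTD-labelled contrast, 11 of the 36 ATF4 targets were higher and 0 lower in Het-NTD than in WT-NTD by edgeR, beside 5.24% of all genes higher, with Stc2 at 0.89, Vegfa at 0.64 and Mthfd1l, a mitochondrial folate enzyme, at 0.39 on the log2 scale. Leaving out 1 library gave 6 (without Het-NTD library 1) to 11 targets (without WT-NTD library 1), with 7 without Het-NTD library 2 or WT-NTD library 3. Of the 20 synthetases, 2 were higher there, Wars at 0.22 and Aars at 0.23. The 6 fits that left out 1 library called 0 or 1 synthetase, with 0 without Het-NTD library 1 or 2 or WT-NTD library 2.

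Lists of the protein-folding arm held calls in both directions in Het against WT, beside 16.5% of all genes called, 7.89% higher and 8.61% lower. The counts of folding and degradation genes are near that share and are no result about those lists. Among 22 further regulators of the unfolded protein response, 6 were higher and 1 lower, led by Wfs1 at 0.39, Tmbim6 at 0.25 and Creb3l1 at 0.61 on the log2 scale. Among 32 further folding genes, 3 were higher and 2 lower, and the lowest p-values were those of Nucb2 at 0.38, the disulfide oxidase Ero1l at 0.43 and Fkbp7 at 0.25. Among 24 further degradation genes, 3 were higher and 1 lower (Derl1 at 0.22, Edem3 at -0.18 and Os9 at 0.17 led). Of 30 translocation and glycosylation genes, 1 was called, the signal peptidase subunit Spcs2 at -0.15. Of 19 genes of the eIF2 kinases and eIF2 machinery, edgeR called 0, with 3 at an unadjusted p under 0.05, and the count was not run with DESeq2. The share of all genes at the unadjusted cut is not given for this comparison. In neighbouring stress pathways, beside 16.5% of all genes called, the calls were 2 higher and 3 lower of 21 cytosolic heat shock genes, where the small heat shock protein Cryab fell by 1.39 on the log2 scale, 1 higher of 13 mitochondrial stress genes (the protease Lonp1 at 0.54), and 2 higher and 3 lower of 19 NRF2 targets.

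No member passed the threshold for the label NTD alone. By edgeR, 0 of 34 members were called in Het-NTD against Het, where 2 had an unadjusted p under 0.05, and 0 in WT-NTD against WT, where 1 had, and DESeq2 called 0 in each. Over all genes, 0.014% were called in each comparison. The median log2 difference of the members was 0.02 in Het-NTD against Het and 0.05 in WT-NTD against WT, and over all genes 0.00 in each. In Het-NTD against Het the log2 differences were 0.00 for Hspa5, 0.05 for Xbp1, 0.11 for Atf4 and 0.02 for Ddit3, and in WT-NTD against WT they were -0.05, 0.08, 0.10 and 0.06. The difference between these NTD effects was called for 0 of 34 members by edgeR and by DESeq2, where edgeR called 0% of all genes. At an unadjusted p under 0.05 there was 1 member (Syvn1 at -0.15). For none of these NTD comparisons is the share of all genes at that unadjusted cut given. The difference between the NTD effects was 0.05 for Hspa5, -0.02 for Xbp1, 0.01 for Atf4 and -0.05 for Ddit3.

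In experiment 1 no member passed the threshold between KO and WT fibroblasts by edgeR, where 0.447% of 14551 genes did (65 genes). All 11 chaperones and all 3 disulfide isomerases had log2 differences below 0 in KO against WT, with medians of -0.23 and -0.14. Here too, genes of a role can move together in a library, so the signs are not separate observations. Over all 34 members the median was -0.15, against 0.01 over all genes, 27 lay below 0, and 14 had an unadjusted p under 0.05, 9 of them chaperones, beside 12% of all genes tested. DESeq2 called 4 members lower (Hyou1, Sdf2l1, Creld2 and Pdia6, adjusted p 0.00433, 0.0425, 0.0351 and 0.0463), beside 2.93% of its 15317 genes with an adjusted p.

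Hyou1, a lumenal HSP70 relative that exchanges nucleotide on BiP, had 288, 242 and 262 CPM in KO libraries, against 317, 332 and 349 CPM in WT libraries (log2 difference -0.33 ± 0.07 SE, edgeR adjusted p 0.109). Hspa5 had 1416.5, 1396 and 1472 CPM in KO libraries, against 1599, 1669 and 1867 CPM in WT libraries (log2 difference -0.26 ± 0.07 SE, edgeR adjusted p 0.208). Sdf2l1, a cofactor of the BiP cycle, had 21.9, 15.8 and 15.4 CPM in KO libraries, against 22.4, 25.1 and 32.0 CPM in WT libraries (log2 difference -0.58, edgeR adjusted p 0.231). These 3 genes did not overlap between KO and WT, nor did Creld2, a secreted protein induced by endoplasmic reticulum stress, or Pdia6. Further members also separated, among them Hsp90b1, Calr, Dnajb9 and Xbp1 (lower in KO) and Ern1 (higher in KO). The share of all genes that separated in this way was not counted, so the lack of overlap has no background. Creld2 had 50.4, 44.6 and 49.6 CPM in KO libraries, against 55.2, 61.7 and 63.1 CPM in WT libraries, and Pdia6 had 652, 647 and 682 CPM in KO libraries, against 761, 730 and 809 CPM in WT libraries (log2 differences -0.32 and -0.22, edgeR adjusted p 0.168 and 0.193).

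Xbp1 stood at 130, 125 and 135 CPM in KO libraries, against 142, 137 and 157 CPM in WT libraries (log2 difference -0.16, edgeR adjusted p 0.339). Atf4 and Ddit3 overlapped between the groups, with log2 differences of -0.09 and -0.07 (edgeR adjusted p 0.708 and 0.873). The ATF4 pathway genes were uneven among KO libraries: KO library 1 was the lowest of the 3 for Asns, Slc7a5, Chac1, Trib3 and Slc7a11. For Slc7a5, a large neutral amino acid transporter, the values were 280, 453 and 428 CPM in KO libraries, against 428, 397 and 409 CPM in WT libraries. The mean log2 CPM of the 8 ATF4 pathway genes was 6.41, 6.98 and 7.12 in KO libraries, against 7.11, 6.79 and 7.11 in WT libraries. Without KO library 1, edgeR called Hsp90b1 and Hyou1. Macrophage markers were also uneven, summing to 13.0, 387 and 261 CPM in KO libraries, against 95.3, 57.5 and 76.7 CPM in WT libraries, and their part was not tested.

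**Figure D4:**
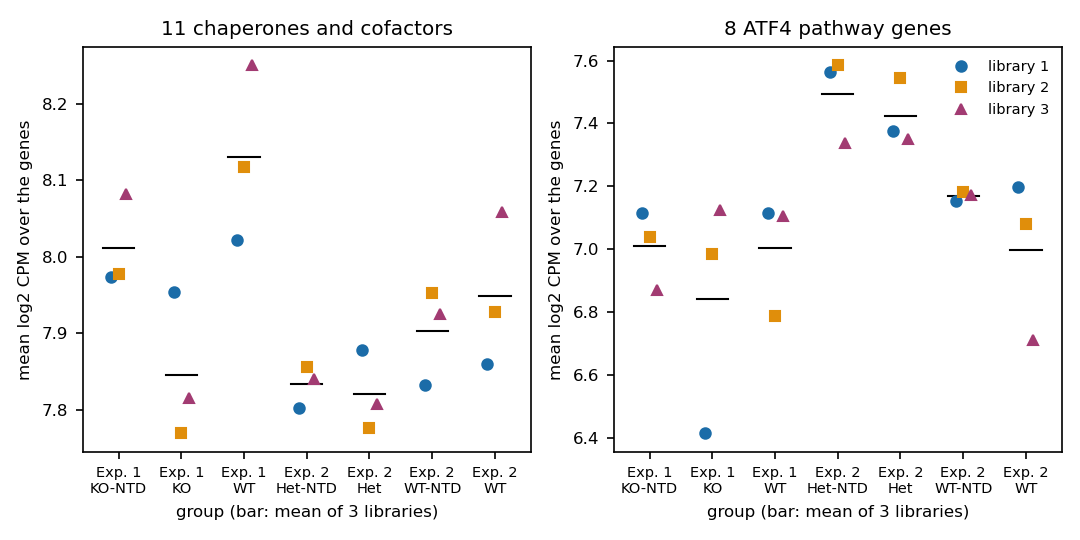
Mean log2 CPM over the 11 chaperones or cofactors (left) and over the 8 ATF4 pathway genes (right) in the 21 fibroblast libraries, scaled over all 27 libraries. The x axis gives the groups, points are libraries and bars the mean of 3 libraries, and the y axes do not start at 0. The chaperone score was lower in every KO library than in any WT library of experiment 1, and KO library 1 was the lowest of all on the ATF4 pathway score, at 6.41.

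The mean log2 CPM of the chaperones was 7.97, 7.98 and 8.08 in KO-NTD libraries, against 7.95, 7.77 and 7.81 in KO libraries and 8.02, 8.12 and 8.25 in WT libraries. KO-NTD libraries thus lay above every KO library and overlapped the WT libraries. The closest values were 7.97 in KO-NTD library 1 and 7.95 in KO library 1, and the score was not tested. By edgeR and by DESeq2 0 members were called in KO-NTD against KO, where edgeR called 0.00687% of all genes. In KO-NTD against WT 0 members were called by either, where edgeR called 0.44% of all genes. At an unadjusted p under 0.05 there were 3 members against KO (Hyou1, Dnajb9 and Edem1) and 4 against WT. The share of all genes at that unadjusted cut is not given, so these members have no background. The median log2 difference of the members was 0.10 against KO and -0.05 against WT, and over all genes -0.01 and 0.00. Hspa5 stood at 1483, 1511.5 and 1719 CPM in KO-NTD libraries, with a log2 difference of 0.14 against KO and -0.12 against WT. For Xbp1 these were 0.10 and -0.06, for Atf4 0.06 and -0.02, and for Ddit3 0.00 and -0.08. The comparisons of experiment 1 share their KO, KO-NTD or WT libraries, so opposite signs in them are not independent.

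Of the further pathway lists, edgeR called 1 gene in KO against WT. Hsph1, a cytosolic HSP110 chaperone of the heat shock list, averaged 137 ± 12.9 CPM in KO libraries and 204 ± 23.5 CPM in WT libraries (SD, n = 3 each; log2 difference -0.58, edgeR adjusted p 0.0392).

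The KO effect of experiment 1 and the Het effect of experiment 2 differed for 1 member by edgeR, Herpud1, beside 1.5% of 14738 genes. Herpud1 stood at 66.3, 75.3 and 87.1 CPM in KO libraries, against 90.1, 84.0 and 100.4 CPM in WT libraries of experiment 1, while it was higher in Het than in WT libraries of experiment 2. The difference of the effects, KO minus Het, was -0.52 ± 0.13 on the log2 scale (SE, edgeR adjusted p 0.0487), and the call was lost with RLE scaling, with no filter on low counts and in 8 of 12 fits that left out 1 library (WT library 1 or 3 or KO library 2 of experiment 1, or WT library 2 or 3 or any Het library of experiment 2). DESeq2 called Herpud1 (adjusted p 0.00829) and Xbp1 (adjusted p 0.0135), beside 5.51% of its 14254 genes, and for Xbp1 the edgeR difference was -0.28 (adjusted p 0.0512). The remaining differences of this kind were -0.16 for Hspa5, -0.18 for Atf4 and -0.48 for Ddit3 (edgeR adjusted p 0.360, 0.299 and 0.236). In all, 30 of 34 members lay below 0 with a median of -0.21, against -0.01 over all genes, and 13 had an unadjusted p under 0.05, beside 18.6% of all genes tested. Members can move together in a library, so these signs are not separate observations either. The experiments were run apart, so experiment and genotype label cannot be told apart in this comparison.

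No member passed the threshold between Het and WT lungs by edgeR or DESeq2, and edgeR called 0% of 15933 genes there. At an unadjusted p under 0.05 there was 1 member, Atf3, a stress-induced transcription factor, with 5.66, 5.70 and 5.21 CPM in Het lungs, against 11.2, 8.91 and 5.82 CPM in WT lungs (log2 difference -0.65, edgeR adjusted p 1). Hspa5 had 633, 538 and 637 CPM in Het lungs, against 655, 683 and 606 CPM in WT lungs. The log2 differences were -0.10 for Hspa5, -0.12 for Xbp1, -0.02 for Atf4 and -0.11 for Ddit3, with groups overlapping for each. Ern1 was uneven among the Het lungs, at 4.03, 5.58 and 32.5 CPM in Het lungs, against 14.7, 7.58 and 7.89 CPM in WT lungs. Het lung 3 was the highest of the 6 and the other Het lungs the lowest, and leaving out 1 lung moved the log2 difference of Ern1 between -1.06 and 0.92. The members' median was -0.01, against 0.01 over all genes. All 5 neutrophil markers lay above 0 in Het against WT lungs, 4 of them at an unadjusted p under 0.05 and 0 called, and their part was not tested. For these markers and for Atf3, the share of all genes at that unadjusted cut is not given, so the counts have no background.

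Whether the Het effect differs between lung and fibroblasts was tested in a joint fit. By edgeR or DESeq2 0 members were called, where edgeR called 1.12% of 16364 genes. At an unadjusted p under 0.05 there were 3 members (Herpud1 at -0.35, Ppp1r15a at -0.53 and Slc7a11 at -1.45, lung minus fibroblast, log2 scale). The share of all genes at that unadjusted cut is not given. The differences were 0.02 for Hspa5, -0.22 for Xbp1, -0.08 for Atf4 and -0.49 for Ddit3 (edgeR adjusted p 1, 0.691, 1 and 0.581). Without Het lung 3, Ern1 was called.

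The widest differences among the comparisons were between tissues. In WT lung against WT fibroblasts, 28 of 34 members were lower and 1 higher by edgeR, beside 84% of 15931 genes called, 45.1% higher and 38.9% lower. The members' median log2 difference was -1.29, against 0.11 over all genes, and DESeq2 called 30, adding Xbp1, beside 80.6% of its 17380 genes. ATF4 pathway genes were the lowest, with a median of -4.38 and 7 of 8 called lower, followed by chaperones at -1.44 (10 of 11 lower) and disulfide isomerases at -1.42 (3 of 3). Degradation genes stood at -0.49 (3 of 4 lower), sensors at -0.49 (2 of 3) and transcription factors at -0.89 (3 of 5). Whole lung holds many cell types and was taken from animals while the fibroblasts grew in culture, so tissue, cell type, age and culture cannot be told apart.

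The enzymes of serine and asparagine synthesis stood out by size. Psat1, the serine synthesis aminotransferase, was measured at 34.1, 35.6 and 32.2 CPM in WT lungs, against 547, 545 and 551 CPM in WT fibroblasts of experiment 1 and 527, 518 and 443 CPM in those of experiment 2, here scaled over all 27 libraries (log2 difference -3.92, edgeR adjusted p 1.2e-10). Phgdh, which starts serine synthesis, had 17.3, 23.3 and 17.1 CPM in WT lungs, against 411, 402 and 404 CPM in experiment 1 and 448, 432 and 400.3 CPM in experiment 2 (log2 difference -4.42, edgeR adjusted p 5.9e-10). Asns, asparagine synthetase, had 11.6, 10.2 and 12.3 CPM in WT lungs, against 247, 233 and 258 CPM in experiment 1 and 244, 240.2 and 179 CPM in experiment 2 (log2 difference -4.35, edgeR adjusted p 8.8e-10). The transporter Slc7a5 was the lowest of the called members relative to fibroblasts, with 13.0, 11.1 and 11.02 CPM in WT lungs, against 463, 435 and 447 CPM in experiment 1 and 538, 502 and 379.6 CPM in experiment 2 (log2 difference -5.28, edgeR adjusted p 4.4e-10). For these 4 genes the highest WT lung lay far below the lowest WT fibroblast library.

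Among folding genes the differences were smaller and tight. Calr had 446, 484 and 443 CPM in WT lungs, against 1738, 1815 and 1936 CPM in experiment 1 and 1706, 1793 and 1886 CPM in experiment 2 (log2 difference -1.97, edgeR adjusted p 2.3e-09). Canx, the membrane-bound partner of calreticulin, Pdia4, a disulfide isomerase, and Hsp90b1 had log2 differences of -1.60, -1.82 and -1.51 (edgeR adjusted p 1.8e-09, 2.4e-09 and 1.4e-08). Canx had 311, 299 and 298 CPM in WT lungs, against 1061 to 1123 CPM in experiment 1 and 766 to 815 CPM in experiment 2. Hspa5 had 540.1, 560 and 498 CPM in WT lungs, against 1733, 1827 and 2040.2 CPM in experiment 1 and 1547, 1639.9 and 1757 CPM in experiment 2 (log2 difference -1.70, edgeR adjusted p 1.4e-08).

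Dnajb9, an endoplasmic reticulum J-domain cofactor of BiP also called ERdj4 and a known target of XBP1, went the other way, with 32.3, 32.1 and 33.6 CPM in WT lungs, against 21.7, 23.6 and 27.5 CPM in experiment 1 and 14.7, 18.3 and 15.7 CPM in experiment 2 (log2 difference 0.73, edgeR adjusted p 2.7e-05). Members that did not pass were Ppp1r15a at -0.20, Xbp1 at 0.13, Atf6 at -0.12, Atf3 at 0.19 and Herpud1 at -0.05. Xbp1 had 152, 172 and 162 CPM in WT lungs, against 154, 150.2 and 172 CPM in experiment 1 and 146, 135 and 145 CPM in experiment 2. Atf4 (-0.89) and Ddit3 (-0.92) were lower in lung (edgeR adjusted p 5.0e-07 and 6.0e-04).

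Over all 27 libraries, the 6 lungs lay below all 21 fibroblast libraries for 24 members and above them for Dnajb9 alone, and 9 members overlapped. Of 16694 genes that passed the filter over these libraries, 26.7% lay below and 32.8% above in the same way. Dnajb9 stood at 32.0 to 34.4 CPM in lung, against 13.7 to 27.5 CPM in fibroblasts. Slc7a11 was at 0.839 to 1.30 CPM in lung, against 13.9 to 105 CPM in fibroblasts, and Chac1, a glutathione-degrading enzyme, at 0.900 to 1.77 CPM in lung, against 20.01 to 60.9 CPM in fibroblasts. Xbp1 spanned 131 to 172 CPM in lung, against 135 to 172 CPM in fibroblasts. The further lists differed in the same tissue contrast: all 20 aminoacyl-tRNA synthetases were lower in WT lung (median -2.10, led by Iars at -2.99, Mars at -2.14 and Gars at -2.38), and of 36 further ATF4 targets 25 were lower and 6 higher (median -1.58, led by the mitochondrial folate enzymes Mthfd1l at -3.89, Shmt2 at -3.52 and Mthfd2 at -4.36).

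**Figure D5:**
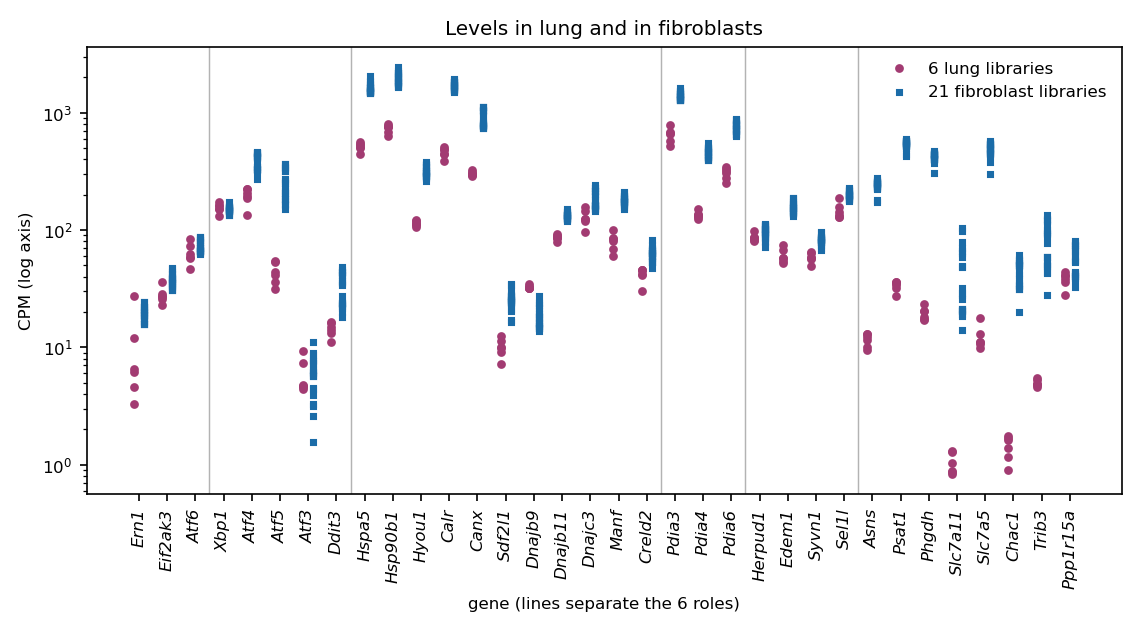
CPM of the 34 genes in the 6 lung libraries and the 21 fibroblast libraries, scaled over all 27 libraries, on a log axis. The x axis gives the genes by role and each point is a library. The lungs lay below every fibroblast library for 24 genes and above for Dnajb9, beside 26.7% and 32.8% of all genes that passed the filter, and the widest gaps were in the ATF4 pathway genes.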

How the data were processed

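RNA sequencing was measured in 27 mouse libraries of 9 groups, 3 each. A single table of unnormalised read counts for 24062 gene symbols was deposited by the authors. Subread, featureCounts 1.4.6, TopHat2 2.0.14 and Bowtie2 2.2.6 with the build mm10 are named, per the submitters' processing notes. Annotation and strand setting are not given in the sources used here, and the TruSeq kit named in the labels' protocols does not mark strand.

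Totals were 29730693 to 69517834 counts per library, and 3 libraries per group limit the precision. Genes were filtered by filterByExpr by group, scaled by TMM and tested with edgeR 4.0.16 (limma 3.58.1, R 4.3.3), using its quasi-likelihood test in the robust form, with a threshold of 0.05 on two-sided p-values adjusted by Benjamini-Hochberg over all genes tested. Experiment 1 (9 libraries, 14551 genes), experiment 2 (12, 14314) and lung (6, 15933) were fitted apart. Differences between effects and tissues used joint fits of 12, 21 and 9 libraries (16364, 14738 and 15931 genes). CPM are TMM-scaled within a fit unless said to be scaled over 27 libraries, mean log2 CPM used a prior count of 2, and levels per kb used exon lengths of GENCODE M21 on GRCm38, the assembly of mm10. DESeq2 1.42.0, RLE scaling, no filter, a replicate block, fits of 2 groups and leaving out each library were the alternatives. All members were kept. At most 8 called members per comparison were named by lowest p, with Hspa5, Xbp1, Atf4 and Ddit3 in each, and up to 3 called genes per further list. Other genes named in the report, such as Slc7a11, Hyou1 and Calr, were chosen after their values were seen. The members, roles and lists were chosen with earlier results of these data known. The scripts were tested on simulated data. No libraries of a group agreed within sampling noise, so each library counted as 1 sample.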

Additional observations from a re-analysis of the deposited data

Results flagged for a closer look

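Herpud1 was picked out because its genotype effects differed between the fibroblast experiments by the test of the difference itself. The KO effect of experiment 1 minus the Het effect of experiment 2 was -0.52 on the log2 scale (edgeR adjusted p 0.0487). The log2 difference of Herpud1 was -0.26 in KO against WT libraries of experiment 1, which did not pass (edgeR adjusted p 0.369), and 0.24 in Het against WT libraries of experiment 2 (edgeR adjusted p 0.0373). The difference ranged from -0.62 to -0.43 over the fits that left out 1 library, and it passed the threshold in 4 of the 12. It also missed the threshold with RLE scaling and with no filter on low counts. The experiments hold different genotype labels and were run apart, which cannot be told apart here.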

How the results depend on the processing

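Among the members called in each main fit, with Hspa5, Xbp1, Atf4 and Ddit3, no direction of a called difference reversed. Over these members and all settings, 998 alternative values stayed on their side of the threshold, 46 lost a call and 12 gained one. All 46 losses fell in Het against WT, Het-NTD against WT-NTD and KO minus Het, which had 6, 4 and 1 called members. None fell on the 29 members called in WT lung against WT fibroblasts. The 998 therefore do not measure how stable the genotype calls were. Gains by other members were left out of these counts. Among those were Calr and Slc7a11 in Het against WT, and Hyou1, Sdf2l1, Creld2 and Pdia6 in KO against WT with DESeq2. Counts of called members were less stable. With DESeq2 in place of edgeR, KO against WT had 4 members in place of 0, Het against WT 11 in place of 6, Het-NTD against WT-NTD 7 in place of 4, and KO minus Het 2 in place of 1. KO minus Het had 0 with RLE scaling and 0 with no filter on low counts. With the 2 groups alone in the fit, Het against WT had 3 members in place of 6 (Atf5, Pdia6 and Herpud1 lost) and 2 synthetases in place of 9, and Het-NTD against WT-NTD had 17 ATF4 targets in place of 11 and 6 synthetases in place of 2. RLE scaling and no filter each gave 1 synthetase in that comparison. The cause of these changes was not tested, beyond the fewer libraries in the 2-group fits. The alternatives for the ATF4 target and synthetase counts were chosen after seeing the data.

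Leaving out 1 library gave 0 to 2 called members in KO against WT, 2 to 12 in Het against WT (2 without Het library 3, 12 without WT library 1), 0 to 6 in Het-NTD against WT-NTD, 0 to 1 in the lung minus fibroblast difference, 0 to 4 in KO minus Het (4 without KO library 1) and 29 to 31 in WT lung against WT fibroblasts, and 0 in the remaining comparisons. ATF4 targets ranged from 11 to 22 in Het against WT and from 6 to 11 in Het-NTD against WT-NTD, and synthetases from 3 to 11 and from 0 to 1. Over all genes the called counts ranged from 24 to 142 in KO against WT, from 1304 to 2547 in Het against WT, from 739 to 1622 in Het-NTD against WT-NTD and from 46 to 1500 in KO minus Het, so the background moved too. DESeq2 called 449 genes in place of 65 in KO against WT, 378 in place of 64 in KO-NTD against WT, 711 in place of 184 in lung minus fibroblast and 786 in place of 221 in KO minus Het. In WT lung against WT fibroblasts the median over all genes was 0.11, and 0.24 with DESeq2, so the smaller log2 differences there depend on scaling.

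The replicate numbers were not taken to pair the libraries, since in no comparison did every same-number pair correlate above 0.1 (KO against WT -0.16, -0.05 and 0.19; Het against WT -0.20, 0.20 and -0.11). In WT-NTD against WT each library correlated best with its own number, a hint from the data and not from the design. With the replicate number as a block, Het against WT had 8 members (Calr and Slc7a11 added), Het-NTD against WT-NTD 5 (Slc7a11 added), KO minus Het 2, WT lung against WT fibroblasts 30, and the remaining comparisons 0. With the block, ATF4 targets numbered 16 and 12, and synthetases 9 and 1, in Het against WT and Het-NTD against WT-NTD.

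With 3 libraries per group, members that missed the threshold cannot be called unchanged. Low counts limit Slc7a11 in lung, at 34 to 79 reads per library.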
